A study of Mus musculus with 98 samples.

Results

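The genes described here are 10 zinc-dependent histone deacetylases, Hdac1, Hdac2, Hdac3 and Hdac8 (class I), Hdac4, Hdac5, Hdac7 and Hdac9 (class IIa), Hdac6 (class IIb) and Hdac11 (class IV). They were chosen by name, with no use of measured values, from the 24754 genes named in all 6 deposited count tables. All 10 passed the filter on low counts in all 6 tables, so every member has a value in each of the 98 libraries.

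Histone deacetylases remove acetyl groups from lysines of histones and other proteins, and so oppose the acetyltransferases that take acetyl-CoA as their substrate. Class I enzymes are mostly nuclear, and Hdac1, Hdac2 and Hdac3 act as catalytic subunits of large repressor complexes such as NuRD, Sin3, CoREST and NCoR. Class IIa enzymes have little catalytic activity of their own and move between nucleus and cytoplasm when kinases phosphorylate them and 14-3-3 proteins bind. Hdac6 is mainly cytoplasmic and deacetylates tubulin, and Hdac11, the only class IV enzyme, also removes long fatty acyl groups. Hdac2 and Hdac3 are known from mouse work as brakes on memory formation, and Hdac2 is the deacetylase most often studied in the hippocampus of models of Alzheimer's disease.

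The study measured polyadenylated RNA in mouse hippocampal neurons and hippocampus after a PhP.eB virus that raises Acss2, the acetyl-CoA synthetase that uses acetate (upACSS2), or after the matching vector. The promoter that drives the viral transgene is not given in the labels. Primary embryonic hippocampal neurons of CD1 mice received virus on day 5 in culture and hAD-tau or PBS from day 7. Unstimulated neurons were collected on day 9 and on day 21, in 8 groups of 3 libraries (upACSS2 or vector, tau or PBS, on each day). A second table holds 12 libraries of neurons labelled stimulated at day 21, in the same 4 combinations of virus and tau with 3 libraries each; the labels used here do not describe the stimulus, the strain or the supplier of these cells. A further table holds neurons without virus at day 21, 4 libraries with tau and 3 with PBS. Aged mice were C57BL6 males of 22 to 23 months, injected behind the eye 2 months before collection, with whole hippocampus taken 30 minutes after a recall test (12 upACSS2 and 12 vector). The 10-month mice were C57BL6 males, with dorsal hippocampus taken 2 weeks after injection and 30 minutes after fear conditioning (6 upACSS2 and 5 vector). PS19 mice are males with a transgene for human mutant tau, injected at 2.5 months and collected 1 month later (3.5 months old) or 6 months later (8.5 to 9 months old), 30 minutes after a recall test, with 5 libraries for each virus and time. All PS19 groups carry the tau transgene, so no group there is free of it. Tissue is labelled dorsal hippocampus in 3 of the 4 PS19 groups and whole hippocampus in the upACSS2 group at 1 month, so virus and dissection cannot be told apart at that time. Titles and treatment labels contradict each other in several groups, and groups follow the titles. Nothing in the labels says that the 3 libraries of a neuron group come from separate cultures, so p-values there measure the spread between these libraries, which may be technical.

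Total counts ranged from 5075099 in a 10-month mouse to 39985460 in a stimulated neuron library. The lowest count of any member in any library was 33, for Hdac7. Acss2 was higher in every library titled upACSS2 than in every vector library in 7 of 10 pairs of groups. In neurons the vector libraries had 40.1 to 57.8 Acss2 CPM (counts scaled to a common library total) and the upACSS2 libraries 1487 to 5460 CPM. In 10-month mice vector libraries had 42.2 to 48.7 CPM and upACSS2 libraries 49.8 to 59.1 CPM. Acss2 itself did not pass the edgeR threshold for the virus in any mouse comparison (adjusted p = 0.371 to 0.832). In aged mice the upACSS2 and vector libraries overlapped, at 46.6 to 61.4 against 39.9 to 53.6 CPM, and both PS19 comparisons overlapped too, at 59.6 to 1464 against 51.6 to 65.5 CPM at 1 month and 45.9 to 236 against 43.6 to 55.9 CPM at 6 months. The 5 neuron markers were all detected in every table and summed to 1828 to 6180 CPM in the neuron tables and 3924 to 6907 CPM in the mouse tables. Several libraries stood apart in summed markers of other cells. The culture with vector and PBS at day 21, replicate 3, had 16800 CPM of 5 astrocyte markers against 2096 to 9031 CPM in the other 11 unstimulated day 21 libraries. Replicate 3 of the PBS cultures without virus had 1055 CPM of the same markers against 4446 to 8876 CPM in the other 6, and 14.4 CPM of oligodendrocyte precursor markers against 613 to 2069 CPM. Replicate 3 of the stimulated neurons with vector and tau had 1218 CPM of astrocyte markers against 2985 and 2888 CPM in the rest of its group. Replicates 1 to 3 of both aged groups had 102 to 157 CPM of 4 endothelial markers, above the 33.0 to 78.1 CPM of replicates 4 to 12. In all of these bulk libraries, fewer cells of a type and less RNA per cell cannot be told apart.

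The sequence before the annotated start is shown for the 5 members with the largest changes between day 9 and day 21 described further on: Hdac2, Hdac4 and Hdac6, which fell, and Hdac8 and Hdac11, which rose. Each run reads 5′ to 3′ on the gene's own strand and comes from the 250 bases before a RefSeq start in mouse build GRCm38.p6, kept only where no annotated exon lies. Capitals mark matches on either strand to the motifs searched. Hdac2 lies on chr10:36974544-37001889 (plus strand) and its run on chr10:36974294-36974543. Hdac4 lies on chr1:91928779-92195699 (minus strand), with its run, inside an intron of the longest gene model, on chr1:92180342-92180591. Hdac6 lies on chrX:7930120-7947889 (minus strand), with its run on chrX:7947890-7948139. Hdac8 lies on chrX:102284639-102505359 (minus strand), and the 49 bases outside exons are chrX:102505360-102505408. Hdac11 lies on chr6:91156665-91174692 (plus strand), and the 100 bases outside exons are chr6:91156565-91156664.
Hdac2: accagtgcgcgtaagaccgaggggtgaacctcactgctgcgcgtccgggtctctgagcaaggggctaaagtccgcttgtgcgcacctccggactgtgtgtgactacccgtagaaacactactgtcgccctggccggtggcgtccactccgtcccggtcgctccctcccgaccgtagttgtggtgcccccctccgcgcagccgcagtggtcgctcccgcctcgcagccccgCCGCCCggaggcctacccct
Hdac4: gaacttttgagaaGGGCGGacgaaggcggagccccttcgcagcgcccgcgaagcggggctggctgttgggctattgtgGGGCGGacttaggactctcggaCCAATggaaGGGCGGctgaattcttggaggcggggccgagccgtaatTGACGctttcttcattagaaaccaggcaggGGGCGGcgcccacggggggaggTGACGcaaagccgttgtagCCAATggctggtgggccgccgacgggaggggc
Hdac6: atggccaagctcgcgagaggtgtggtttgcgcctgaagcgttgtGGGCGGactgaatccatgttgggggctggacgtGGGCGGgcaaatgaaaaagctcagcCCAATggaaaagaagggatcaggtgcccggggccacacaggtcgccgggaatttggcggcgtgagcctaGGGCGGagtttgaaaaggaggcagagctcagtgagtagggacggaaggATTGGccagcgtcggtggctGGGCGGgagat
Hdac8: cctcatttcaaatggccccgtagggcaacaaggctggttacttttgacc
Hdac11: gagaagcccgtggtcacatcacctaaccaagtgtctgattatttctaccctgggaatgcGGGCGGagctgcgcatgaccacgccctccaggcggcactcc

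Each motif was searched on both strands. The GC box bound by Sp1 was searched as GGGCGG. The CCAAT box bound by NF-Y was searched by those letters, and the TATA box as TATAAA. The core of the cAMP response element was searched as TGACG, which is also part of the full element, searched as TGACGTCA. An E-box was searched as CACGTG. The letters for ETS factors were CCGGAAG. Windows were at hand for 8 members, 12 windows in all, since Hdac7 has 4 and Hdac9 has 2. Over the full 250 bases, the Hdac6 window held the GC box and the CCAAT box, with 17 CpG at 61.2% GC. The Hdac4 window held these and the core of the cAMP response element, with 23 CpG at 65.2% GC, and the Hdac11 window held the same 3 motifs with 17 CpG at 65.2% GC. The Hdac2 window held the GC box alone, with 27 CpG at 68.8% GC. The Hdac8 window differed from these in holding the CCAAT box and the TATA box but no GC box, with 6 CpG at 48.4% GC. Across all 32851 windows of the same length, 32.7% held the GC box, 33.8% the CCAAT box, 17.8% the core of the cAMP response element and 12.4% the TATA box, with a median of 6 CpG and 52.4% GC. No member window held the full element, the E-box or the ETS letters, which 1.55%, 6.02% and 6.91% of all windows held. These are matches of letters and do not show binding, and Hdac4, which fell, and Hdac11, which rose, shared the same motifs.

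To compare genes, CPM was divided by the summed exon length in kilobases (kb). Hdac11 had the highest median level per kb of the 10 in all 3 mouse tables, at 54.5 CPM per kb in aged mice, 49.0 in 10-month mice and 45.8 in PS19 mice. In neurons it shared the lead with Hdac2. Hdac2 had 36.1 CPM per kb in the unstimulated neurons against 23.4 for Hdac11, and 28.4 against 27.6 in the cultures without virus, while stimulated neurons had 29.1 for Hdac2 and 31.5 for Hdac11. Hdac3 followed in neurons, with 22.5 to 23.1 CPM per kb, and had 12.6 to 14.1 in mice, below the range of 15.8 to 21.2 of Hdac5 over all tables. Hdac7, which is best known from endothelial cells and lymphocytes, was lowest per kb in 5 of the 6 tables.

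**Figure D1:**
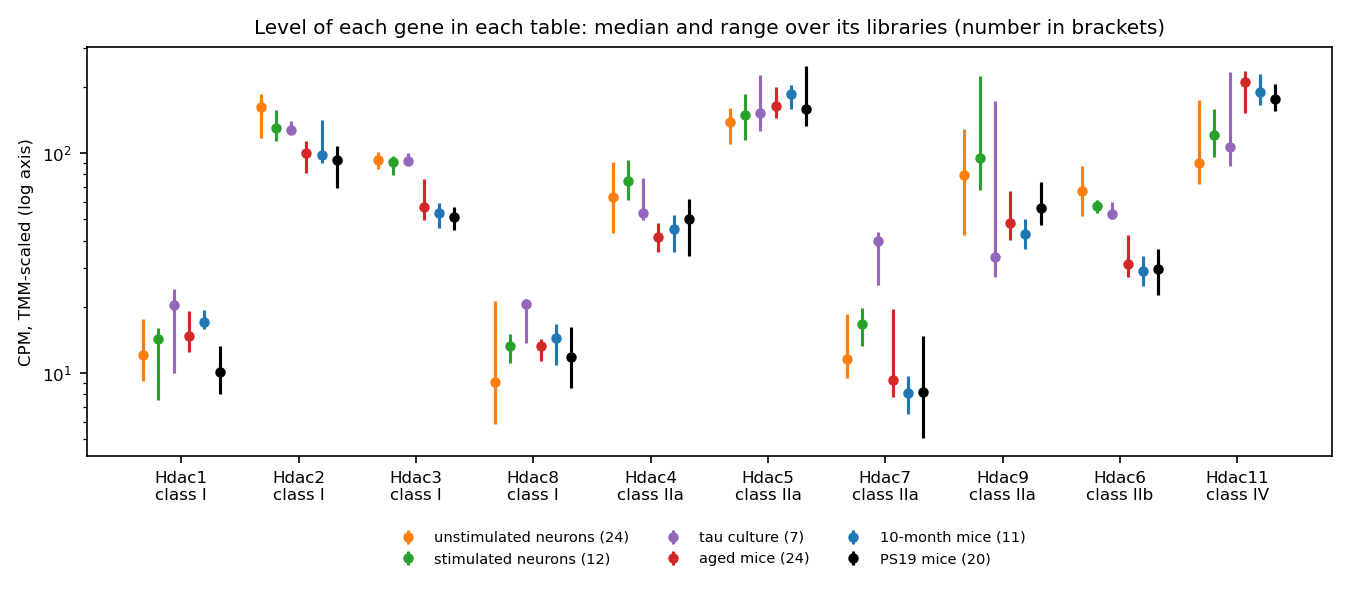
CPM of the 10 deacetylase genes in each deposited table, on a log axis. Points are medians over the libraries of a table, and bars run from the lowest to the highest library. Hdac11 reaches medians of 176 to 210 CPM in the 3 mouse tables against 90.0 to 121 CPM in the neuron tables, and Hdac2, Hdac3 and Hdac6 sit lower in mice than in neurons.

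The tables are separate experiments, so levels across them are set side by side with no test. In CPM, Hdac6 had medians of 52.9 to 67.1 in the neuron tables and 29.2 to 31.2 in the mouse tables. Hdac2 had medians of 127 to 161 CPM in neurons and 93.3 to 99.9 CPM in mice, and Hdac3 had 91.2 to 93.5 and 51.0 to 57.1 CPM. Hdac5 was the steadiest between kinds of sample, with medians from 139 to 186 CPM. Hdac7 had its highest median, 39.9 CPM, in the cultures without virus, against 8.1 to 16.7 CPM in the other 5 tables.

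Most of the deacetylases changed between day 9 and day 21 in culture. Hdac8 and Hdac11 rose, by 0.86 ± 0.10 and 0.60 ± 0.06 on the log2 scale (± SE, 12 libraries a day), and Hdac6, Hdac4 and Hdac2 fell by 0.55 ± 0.03, 0.49 ± 0.06 and 0.37 ± 0.04. Smaller changes past the threshold were found for Hdac1 and Hdac7, which were higher, and Hdac3, which was lower. In edgeR tests of single conditions, where 52.6% to 57.7% of all genes passed, Hdac7 passed in none (adjusted p = 0.122 to 0.605). Hdac3 passed only in vector with tau (adjusted p = 0.034). Hdac1 passed with PBS under either virus but not with tau (adjusted p = 0.151 with vector and 0.258 with upACSS2). In all, 8 of the 10 members passed the threshold (4 higher, 4 lower), where 76.4% of all 14863 genes tested passed it (40.6% higher, 35.8% lower), so the share of members called is near the background. For 4 members the libraries of the days did not overlap, against 31.3% of all genes. The day test used 1 fit of all 24 unstimulated libraries, with a shared estimate of the spread, though the spread was wider at day 21. With library totals in place of TMM scaling the median of all genes moved by 0.14, and 65.8% of called genes were higher against 53.1% with TMM.

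**Figure D2:**
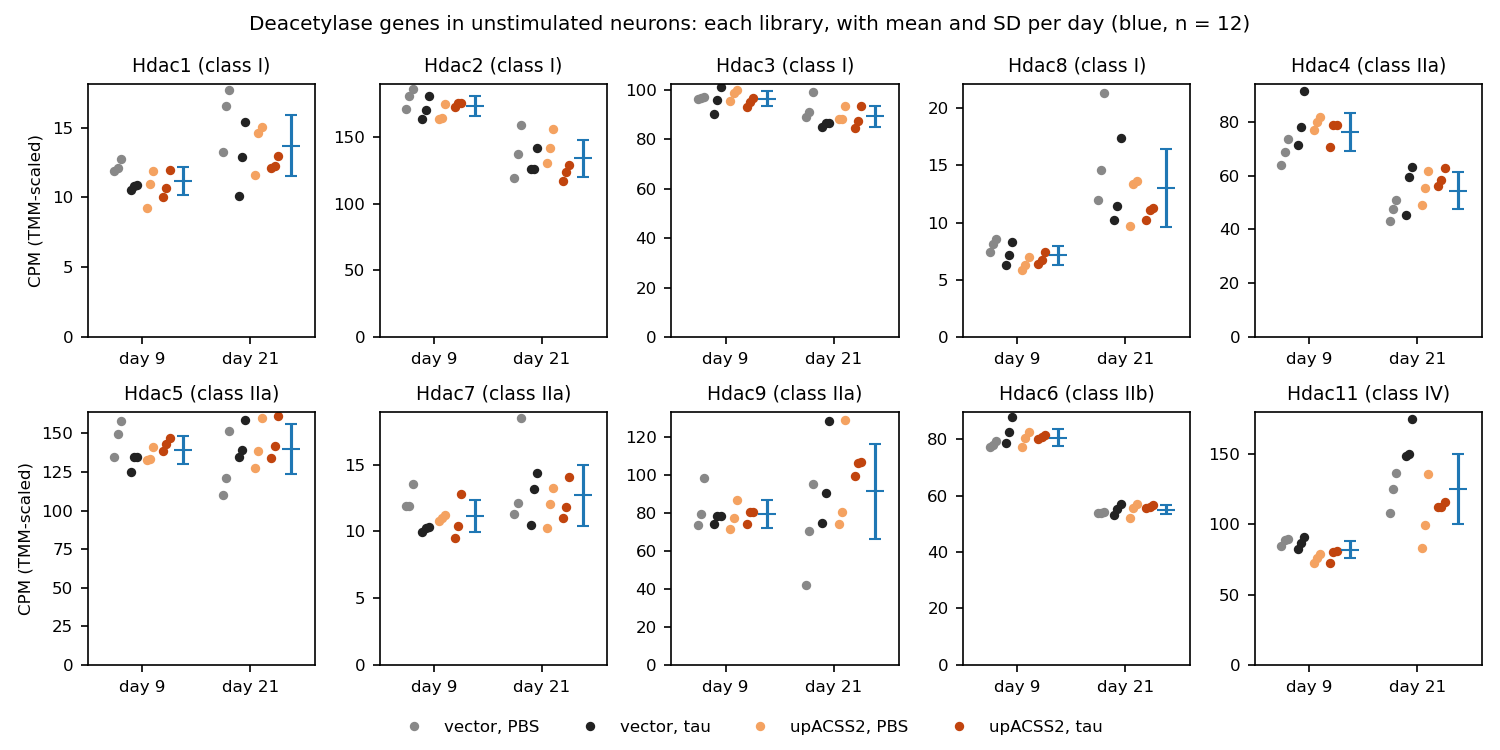
CPM of each deacetylase gene in unstimulated neurons at day 9 and day 21, one point per library, with the mean ± SD of 12 libraries a day. Hdac2, Hdac4 and Hdac6 are lower and Hdac8 is higher at day 21 with no overlap, and Hdac11 is higher with a wider spread at day 21.

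Among class I, Hdac2, a catalytic subunit of NuRD, Sin3 and CoREST, had 164 CPM in the lowest, 174 in the median and 186 in the highest day 9 library, and 117, 130 and 159 CPM at day 21 (adjusted p = 1.35e-07). Every day 21 library lay below every day 9 library. Hdac1, the close paralogue of Hdac2 in the same complexes, had 9.22, 10.9 and 12.7 CPM at day 9 and 10.1, 13.1 and 17.7 CPM at day 21. Hdac1 rose by 0.29 ± 0.07 (adjusted p = 8e-04), with overlap between the days. The log2 ratio of Hdac2 to Hdac1 CPM was therefore 3.96 ± 0.11 (SD, n = 12) at day 9 and 3.30 ± 0.19 at day 21. The ranges of this ratio, 3.82 to 4.15 and 2.86 to 3.64, did not overlap, and neither did those of Hdac2 alone. The share of other gene pairs whose ratio separates the days was not computed, so the ratio is a description only. Hdac3, the enzyme of the NCoR complex, went from 90.2, 96.5 and 101 CPM to 84.7, 88.2 and 99.2 CPM, a fall of 0.11 ± 0.03 (adjusted p = 0.00215). This direction depended on the scaling, since with library totals its change was +0.03 (adjusted p = 0.33). Hdac8, an enzyme that deacetylates the cohesin subunit Smc3, went from 5.87, 7.08 and 8.54 CPM to 9.69, 11.7 and 21.3 CPM (adjusted p = 1.06e-07). The highest Hdac8 value was in the day 21 library with the most astrocyte marker RNA, and without that library the rise was 0.79 ± 0.09.

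Among class IIa, Hdac4, a partner of MEF2 factors that shuttles between nucleus and cytoplasm in neurons, had 63.9, 77.6 and 91.5 CPM (lowest, median, highest) at day 9 and 43.3, 55.8 and 63.0 CPM at day 21 (adjusted p = 8.36e-08). All day 21 libraries were below all day 9 libraries. Hdac5, which shuttles likewise with neuronal activity, had 125, 137 and 158 CPM at day 9 and 110, 139 and 161 CPM at day 21, with a difference of 0.00 that did not pass the test (adjusted p = 0.945). Hdac7 had 9.50, 10.9 and 13.5 CPM and then 10.2, 12.1 and 18.5 CPM. Its rise of 0.19 ± 0.08 (adjusted p = 0.0406) was lost without replicate 3 of vector with PBS at day 21, the library with the most astrocyte marker RNA, where the change was 0.12 and the adjusted p 0.124. Hdac9, which regulates dendrite growth in cortical neurons, went from 71.8, 78.3 and 98.3 CPM to 42.3, 92.8 and 129 CPM, a difference of 0.18 that did not pass (adjusted p = 0.146). Its lowest value came from that same library, and without it the Hdac9 difference was 0.24 (adjusted p = 0.0281). Day 21 thus had the wider spread for Hdac9, with an SD of 24.9 CPM against 7.23 CPM at day 9.

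Hdac6, the tubulin deacetylase of class IIb, showed the smallest spread of the members that fell. Its CPM was 77.1, 80.3 and 87.7 at day 9 and 52.0, 55.5 and 57.2 at day 21 (adjusted p = 2.12e-13), with no overlap. The mean was 80.5 ± 2.9 CPM (SD, n = 12) at day 9 and 55.0 ± 1.7 CPM at day 21. The log2 change was -0.53 in vector with PBS, -0.59 in vector with tau, -0.55 in upACSS2 with PBS and -0.53 in upACSS2 with tau. Hdac11 had 72.2, 81.8 and 90.7 CPM at day 9 and 83.1, 120 and 174 CPM at day 21 (adjusted p = 1.59e-08). A single upACSS2 library with PBS at day 21 (83.1 CPM) lay within the day 9 range. The Hdac11 rise was 0.50, 0.86, 0.49 and 0.54 in the same order of conditions, and that of Hdac8 was 1.00, 0.84, 0.94 and 0.67. In the stimulated neurons, a separate table set beside these with no test, Hdac4 was at 74.6 ± 8.2 CPM (SD, n = 12) and Hdac7 at 16.6 ± 2.0 CPM, against 54.4 ± 6.9 and 12.7 ± 2.3 CPM in unstimulated day 21 neurons.

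The cell makeup of the cultures moved with the day as well. Summed astrocyte markers were 994 to 1387 CPM at day 9 and 2096 to 16800 CPM at day 21, and oligodendrocyte precursor markers were 5.1 to 20.9 CPM and then 441 to 1056 CPM. Markers of dividing cells were 34.9 to 67.6 CPM at day 9 and 47.9 to 292 CPM at day 21. The 5 neuron markers summed to 5464 to 6180 CPM at day 9 and 2989 to 4682 CPM at day 21, so neurons were present on both days. The part of these cells in the changes of Hdac2, Hdac4, Hdac6, Hdac8 and Hdac11 was not tested.

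The partners of the deacetylases changed in both directions over the same days, where 40.6% of all genes rose, 35.8% fell and the median log2 change of all genes was 0.04. Of 12 NuRD genes, 5 rose and 3 fell (median 0.03). Among these the helicase Chd4 rose by 0.49, while Chd5, a helicase of mature neurons, fell by 0.73 and Chd3 by 0.56. Of 13 Sin3 genes, 4 rose and 7 fell (median -0.10), with Sap30 up by 0.66 and Ing1, a reader of methylated histone H3, down by 0.88. Of 10 CoREST genes, 2 rose and 6 fell (median -0.20). The 2 that rose were Rest, the repressor of neuronal genes that recruits CoREST, by 0.70, and Hmg20b, by 0.66. Of 23 regulators of class IIa enzymes, 7 rose and 14 fell (median -0.34). The kinases Prkd3 and Prkd2 rose by 1.53 and 0.91, while the 14-3-3 gene Ywhag fell by 1.21 and the kinase Sik1 by 1.18.

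The virus comparison asks whether more Acss2 changed the deacetylases. In the day 9 neurons with PBS, 1 member, Hdac11, passed the threshold, where 10.2% of all genes did, and its libraries did not overlap, as for 30.8% of all genes. Hdac11 had 89.3, 84.2 and 88.9 CPM in the vector libraries and 76.0, 78.8 and 72.2 CPM in the upACSS2 libraries. All 3 upACSS2 values were below all 3 vector values, and Hdac11 fell by 0.22 ± 0.05 (adjusted p = 0.0125). With tau at day 9 it had 90.7, 82.5 and 86.3 CPM with vector and 80.4, 81.2 and 72.5 CPM with upACSS2, a difference of -0.15 ± 0.05 that did not pass (adjusted p = 0.195). The difference between the virus effects in PBS and tau was 0.06 (adjusted p = 0.705). The call depended on the fit: over the alternatives the adjusted p for day 9 with PBS ran from 9.91e-04 to 0.915, the last with all 24 unstimulated libraries sharing 1 estimate of the spread, and leaving out 1 library kept the call in 4 of 6 fits, with changes of -0.25 to -0.19. The call was lost without upACSS2 replicate 3 and without vector replicate 1.

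**Figure D3:**
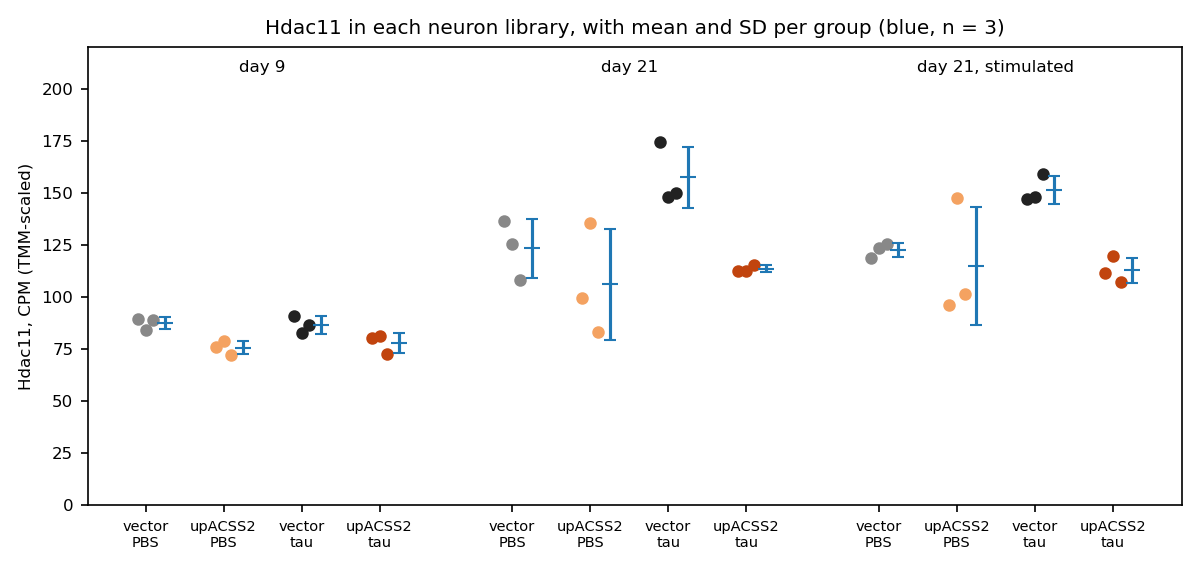
Hdac11 CPM per library in neurons, by day, stimulation, tau and virus, with the mean ± SD of 3 libraries. The upACSS2 libraries lie below the vector libraries with no overlap at day 9 (6 against 6) and, with tau, at day 21 and after stimulation (3 against 3 each).

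Averaged over PBS and tau, a comparison added after the data were seen, Hdac11 was lower with upACSS2 at day 9 by 0.19 ± 0.04 (adjusted p = 0.0054), with all 6 upACSS2 libraries below all 6 vector libraries. For this average 6.4% of all genes passed, 22.2% had an unadjusted p under 0.05 and 2.06% had no overlap. With all 24 libraries in 1 fit the adjusted p was 0.948. At day 21 the Hdac11 values with PBS were 136, 125 and 108 CPM with vector and 99.3, 136 and 83.1 CPM with upACSS2 and overlapped. With tau at day 21 they were 174, 148 and 150 CPM against 112, 112 and 116 CPM, with no overlap, where 21.7% of all genes had none. That difference was -0.46 ± 0.16 and did not pass (adjusted p = 0.341). The stimulated neurons with tau had 147, 148 and 159 CPM with vector and 111, 119 and 107 CPM with upACSS2, a difference of -0.42 ± 0.13 (adjusted p = 0.108; 0.0467 in DESeq2), with no overlap, where 24.7% of all genes had none. Stimulated neurons with PBS had 119, 123 and 126 against 95.9, 148 and 101 CPM, which overlapped. The averages over PBS and tau were -0.34 ± 0.11 at day 21 (adjusted p = 0.141) and -0.26 ± 0.09 after stimulation (adjusted p = 0.134). Neither average passed the threshold, and the virus effect on Hdac11 was not shown to vary with tau, with an interaction of -0.23 at day 21 (adjusted p = 0.809) and -0.33 after stimulation (adjusted p = 0.428). For these interactions edgeR called 0 members and 0.0% of all genes on either set, with 0 members in DESeq2 and 0 at an unadjusted p under 0.05, where 8.3% of genes were at day 21 and 14.3% after stimulation.

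Some marker sums of other cells moved with the virus in the same libraries, and others overlapped. At day 9 with PBS, the precursor markers summed to 5.14 to 6.39 CPM with upACSS2 and 9.29 to 20.9 CPM with vector. Markers of dividing cells were 38.7 to 42.8 against 50.2 to 67.6 CPM, and neuron markers 5982 to 6180 against 5464 to 5567 CPM. With tau at day 9, precursor markers overlapped, at 5.37 to 7.98 CPM with upACSS2 and 6.92 to 14.1 CPM with vector. Neuron markers overlapped there too, at 5807 to 6127 against 5759 to 6137 CPM. Markers of dividing cells did not, at 34.9 to 39.1 against 39.5 to 48.7 CPM. With tau at day 21, astrocyte markers were 4261 to 9031 CPM with upACSS2 and 2096 to 4169 CPM with vector. After stimulation with tau they were 5186 to 5555 against 1218 to 2985 CPM. With PBS astrocyte markers overlapped, at 2532 to 4884 against 3265 to 16800 CPM at day 21. After stimulation with PBS they overlapped at 3465 to 7463 against 4344 to 7366 CPM. The part of these cells in the Hdac11 differences was not tested.

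The other members did not pass the threshold for the virus at day 9 with PBS. Hdac11 included, 6 members had an unadjusted p under 0.05, where 26.2% of all genes did, and 4 had no overlap. Hdac8 had 7.45, 8.14 and 8.54 CPM with vector and 6.29, 5.87 and 6.97 CPM with upACSS2, a difference of -0.32 (adjusted p = 0.0737). Hdac4 had 68.7, 63.9 and 73.5 CPM with vector and 77.0, 81.8 and 79.8 CPM with upACSS2, a difference of 0.20 (adjusted p = 0.0575; 0.0479 in DESeq2, which called 2 members). In the same comparison 4.9% of all genes were higher and 5.35% lower, and with library totals 35.9% of called genes were higher against 47.8%. Of the 23 regulators of class IIa enzymes 4 were higher and 0 lower, among them Sik2, by 0.27, and the transcription factor Mef2c, by 0.20. Of 12 NuRD genes, Gatad2b was higher by 0.25, while Chd4 and Rbbp4 were each lower by 0.13. In the Sin3 list, Sap130 was higher by 0.31 and Brms1 lower by 0.35, and none of the CoREST genes passed.

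In the other virus comparisons of neurons edgeR called 0 members each. With tau at day 9, 0.692% of all genes passed; 2 members had an unadjusted p under 0.05, where 12.6% of genes did, and DESeq2 called 0. With PBS at day 21, 0.0137% of genes passed, and 0 members were under 0.05 unadjusted, against 16.6% of genes, with 0 in DESeq2. With tau at day 21, 0.0273% of genes passed, and 1 member, Hdac11, was under 0.05 unadjusted, against 10.7% of genes, with 0 in DESeq2. With PBS after stimulation, 0.208% of genes passed, and 0 members were under 0.05 unadjusted, against 15.9% of genes, with 0 in DESeq2. With tau after stimulation, 0.937% of genes passed, and Hdac11 was the 1 member under 0.05 unadjusted, against 20.4% of genes, and the 1 member in DESeq2. The averages over PBS and tau passed for 0.642% of genes at day 21 and 2.64% after stimulation, and at each 1 member was under 0.05 unadjusted, against 18.2% and 22.0% of genes, with 0 in DESeq2.

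The tau comparison asks what hAD-tau did to neurons with each virus; it shares its libraries with the virus comparison. edgeR called 0 members in all of its forms. At day 9 with vector, 4.28% of all genes passed; 3 members had an unadjusted p under 0.05, where 20.6% of genes did, and DESeq2 called 2, Hdac4 and Hdac5. In edgeR Hdac4 was 0.23 higher with tau (adjusted p = 0.0623), Hdac5 was at -0.17 (adjusted p = 0.0606) and Hdac7 at -0.31 (adjusted p = 0.0861). Hdac7 had 10.0 to 10.3 CPM with tau and 11.9 to 13.5 CPM with PBS. With upACSS2 at day 9, 0.349% of genes passed, and 0 members were under 0.05 unadjusted, against 9.05% of genes, with 0 in DESeq2. The differences between the tau effects with each virus were -0.29 for Hdac4 (adjusted p = 0.119) and 0.25 for Hdac5 (adjusted p = 0.0896). These were the 2 members under 0.05 unadjusted, against 17.2% of genes, while 0.663% of genes passed and DESeq2 called 0 members. At day 21 0.0% of genes passed with either virus and DESeq2 called 0 members. With vector 1 member was under 0.05 unadjusted, against 9.3% of genes: Hdac11, at 0.34 (adjusted p = 0.530), with no overlap, where 9.47% of genes had none. With upACSS2 it was 0 members against 6.36% of genes.

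After stimulation with vector, 3.02% of all genes passed for tau; 4 members had an unadjusted p under 0.05, where 24.3% of genes did, and DESeq2 called 0. Hdac9 had the largest difference, 0.74 (adjusted p = 0.172), and without replicate 3 of vector with tau, whose 224 CPM of Hdac9 was the highest of the 12 libraries, it was 0.23 (adjusted p = 0.649). Hdac11 was at 0.30 (adjusted p = 0.180) with no overlap, where 26.7% of genes had none. With upACSS2, 0.208% of genes passed, and 2 members, Hdac7 at -0.36 (adjusted p = 0.192) and Hdac8 at -0.25, were under 0.05 unadjusted, against 14.3% of genes, with 0 in DESeq2. Over both viruses 5.37% of genes passed, and 4 members were under 0.05 unadjusted, against 24.8% of genes, with 0 in DESeq2. Among them Hdac1 was at -0.32 (adjusted p = 0.157) with no overlap, where 1.95% of genes had none, and at -0.20 (adjusted p = 0.193) without replicate 3 of vector with tau. The averages over both viruses passed for 1.53% of genes at day 9, with 1 member under 0.05 unadjusted against 13.4% of genes, and for 0.0% at day 21, with 0 members against 7.15%; DESeq2 called 0 members at either day.

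In the cultures without virus, tau against PBS at day 21 gave 0 of 16341 genes past the threshold in edgeR (2272 genes, 13.9%, and 1 member at an unadjusted p under 0.05) (0.0% of genes), and 330 genes and 0 members in DESeq2. Hdac9 had 28.2, 27.3, 55.2 and 32.0 CPM with tau and 43.3, 33.7 and 172 CPM with PBS. The difference of -1.23 ± 0.57 (adjusted p = 0.374) rested on PBS replicate 3, the library low in astrocyte and precursor markers, and without it was -0.09 (adjusted p = 0.948). Hdac11 had 87.1, 92.8, 106 and 93.0 CPM with tau and 108, 109 and 234 CPM with PBS, with no overlap. Its difference of -0.67 ± 0.27 (adjusted p = 0.345) was -0.20 without PBS replicate 3 (adjusted p = 0.445). Hdac5 was at 0.09 with all libraries and 0.42 without that replicate (adjusted p = 0.345). Hdac4, Hdac6 and Hdac11 had no overlap between tau and PBS, where 16.7% of all genes had none. The same library had 13.7 CPM of Hdac8, 25.1 CPM of Hdac7 and 10.04 CPM of Hdac1, each the lowest of the 7, beside the highest Hdac9 and Hdac11.

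Across libraries, log2 CPM of each member was set against the summed astrocyte, oligodendrocyte and endothelial markers in 110 relations, with permutation p-values (exact for tables under 10 libraries). Libraries were shuffled across virus, tau and time groups alike, so these p-values also take in differences between groups. The r within groups, where given, has no p. Adjusted over the 110, 6 Pearson correlations passed and no Spearman correlation did. In the 12 stimulated neuron libraries Hdac11 was lower where astrocyte markers were higher (r = -0.826, permutation p = 0.00034, adjusted p = 0.0374; rho = -0.762, permutation p = 0.00553, adjusted p = 0.122). Without the 2 libraries farthest from the median r was -0.763, and within groups it was -0.673. In the 7 cultures without virus Hdac9 had r = -0.983 with astrocyte markers (exact permutation p = 0.000794, adjusted p = 0.0437; rho = -0.929, adjusted p = 0.124), and -0.916 without 2 libraries. The relation of Hdac3 with astrocyte markers after stimulation (r = 0.819, permutation adjusted p = 0.048; rho = 0.657, adjusted p = 0.271) weakened to 0.445 without 2 libraries.

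**Figure D4:**
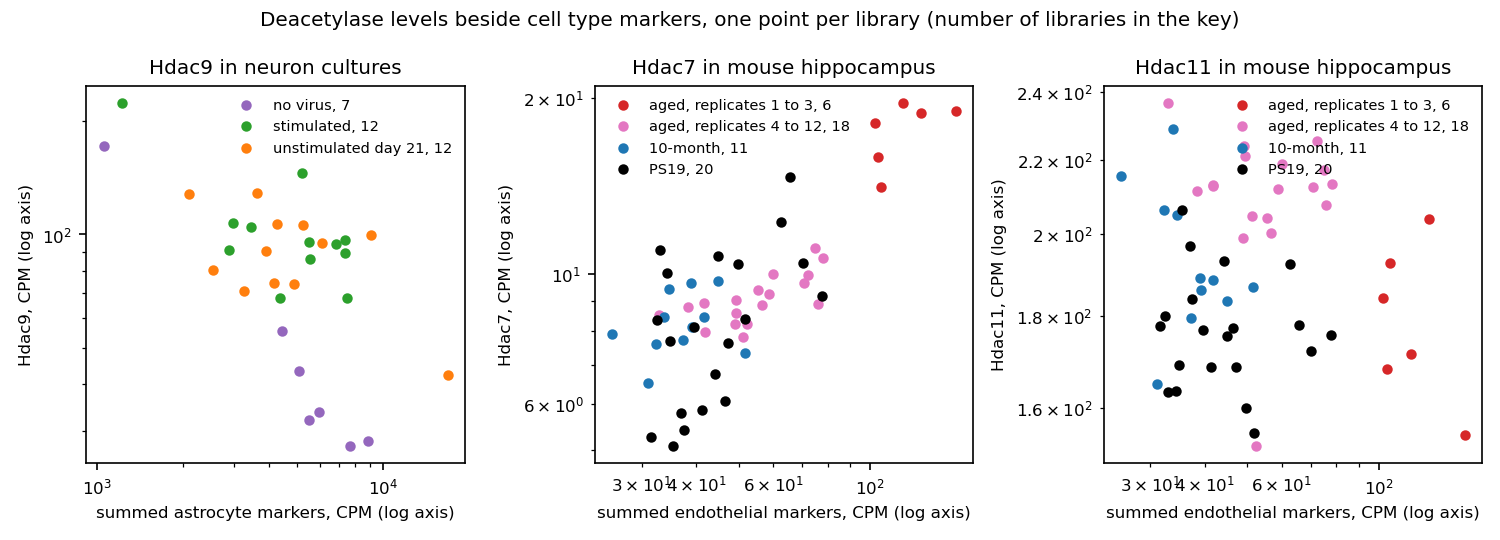
CPM of Hdac9 against summed astrocyte markers in neuron cultures without virus (7 libraries), stimulated neurons (12) and unstimulated day 21 neurons (12). The other panels show Hdac7 and Hdac11 against summed endothelial markers in the mouse tables, with aged replicates 1 to 3 and 4 to 12 marked apart. Each point is 1 library. The culture with 172 CPM of Hdac9 is the one with 1055 CPM of astrocyte markers, and the aged replicates 1 to 3 lie above the others in both Hdac7 and endothelial markers.

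In mice no member passed the threshold for the virus, and Hdac7 differed between sets of aged animals. It had 14.1 CPM in the lowest, 18.5 in the median and 19.6 in the highest of the 6 libraries of replicates 1 to 3, and 7.82, 8.91 and 11.1 CPM in the 18 libraries of replicates 4 to 12. Hdac7 was the only 1 of the 10 members with no overlap between these sets, where 6.59% of 15157 genes had none. The sets were defined from the data by endothelial markers, in which the same replicates stood apart, and are not groups of the study. Mural markers did not overlap between them either, at 107.4 to 152 CPM in replicates 1 to 3 and 58.7 to 104.3 CPM in the others, and the part of either cell type in the Hdac7 difference was not tested. Hdac6 had 30.8, 37.6 and 42.5 CPM against 27.4, 30.0 and 37.3 CPM, and Hdac11 155, 178 and 204 against 152, 213 and 237 CPM, and both overlapped. Within replicates 4 to 12 Hdac7 rose with endothelial markers (r = 0.685, permutation p = 0.00165, adjusted p = 0.0454; rho = 0.688), with r = 0.651 without 2 libraries and 0.435 within virus groups. Hdac6 did likewise (r = 0.691, permutation adjusted p = 0.0454; rho = 0.695), with 0.73 without 2 libraries and 0.399 within virus groups. In replicates 1 to 3 the Hdac7 correlation was 0.579 (exact permutation p = 0.232, 6 libraries).

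For the virus in aged mice edgeR called 0 of 15157 genes (0.0%; 846 genes, 5.58%, and 1 member at an unadjusted p under 0.05), and DESeq2 called 1 gene and 0 members. Hdac6 was 0.14 ± 0.07 higher with upACSS2 (adjusted p = 0.879) and Hdac7 0.21 ± 0.18 higher (adjusted p = 0.959). With the sets as a term in the fit Hdac7 was 0.19 ± 0.05 higher (adjusted p = 0.173), and in replicates 4 to 12 alone 0.17 ± 0.06 (adjusted p = 0.256), at 9.65 ± 0.92 CPM against 8.57 ± 0.49 CPM (SD, 9 libraries each). In those replicates the endothelial markers were 49.0 to 78.1 CPM with upACSS2 and 33.0 to 58.8 CPM with vector, and their part in the Hdac7 difference was not tested. Hdac11 was at 155 to 225 CPM with upACSS2 and 152 to 237 CPM with vector, a difference of 0.00.

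In the 10-month mice edgeR called 0 members for the virus (1 at an unadjusted p under 0.05, where 8.83% of genes were, and 0 in DESeq2), and 0.0% of 13629 genes passed. That member was Hdac4, with 40.9, 46.1, 48.2, 46.0, 49.4 and 52.2 CPM with upACSS2 and 42.9, 35.5, 45.1, 43.7 and 38.1 CPM with vector. The values overlapped, and the difference of 0.20 ± 0.08 did not pass (adjusted p = 0.548). Hdac11 was at 165 to 206 CPM with upACSS2 and 186 to 229 CPM with vector, a difference of -0.15 (adjusted p = 0.581).

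In PS19 mice edgeR called 0 members for the virus at 1 month and 0 at 6 months, with 0.0% of all genes called at either time and 0 members in DESeq2. At an unadjusted p under 0.05 there were 0 members at 1 month, against 2.92% of genes, and 0 at 6 months, against 14.1%. The difference between the virus effects at the 2 times called 0 members as well, with 0.0% of genes, 0 members in DESeq2, and 0 members under 0.05 unadjusted against 12.3% of genes. Hdac11 was at -0.03 at 1 month and 0.04 at 6 months. The largest virus difference was that of Hdac7 at 6 months, with 8.35, 9.18, 6.08, 8.40 and 10.45 CPM with upACSS2 and 10.4, 11.01, 14.7, 10.1 and 10.8 CPM with vector. All but the highest upACSS2 library lay below the vector libraries, and the difference of -0.41 ± 0.20 did not pass (adjusted p = 0.356). Endothelial markers overlapped there, at 32.5 to 77.6 CPM with upACSS2 and 33.0 to 65.6 CPM with vector. Between 6 months and 1 month with vector, edgeR called 0 members, where 7.46% of all genes passed; 2 members were under 0.05 unadjusted, against 25.1% of genes, and 0 were called in DESeq2. The largest difference was that of Hdac7, with 5.79, 6.76, 5.28, 12.3 and 7.71 CPM at 1 month against the vector values at 6 months just given. Replicate 4 at 1 month was the only library of its group within the 6-month range. The difference was 0.58 ± 0.20 (adjusted p = 0.079), and 0.81 without that replicate (adjusted p = 0.0111). That replicate had 62.7 CPM of endothelial markers against 31.6 to 44.2 CPM in the rest of its group and 33.0 to 65.6 CPM at 6 months. The vector library with 14.7 CPM of Hdac7 at 6 months, replicate 3, enters both this and the virus difference. It had 5950 CPM of astrocyte markers (rest of its group 1968 to 4137) and 3008 CPM of glutamatergic neuron markers (rest 4388 to 6279). The part of these cells in the Hdac7 differences was not tested. With upACSS2, edgeR called 0 members between the times, where 0.0442% of all genes passed; 2 members were under 0.05 unadjusted, against 13.7% of genes, and 1, Hdac5, was called in DESeq2. Hdac5 had 180, 156, 250, 170 and 172 CPM at 1 month and 133, 160, 143, 152 and 137 CPM at 6 months. Its difference was -0.37 ± 0.10 (adjusted p = 0.175; 0.0416 in DESeq2), and the tissue label, whole against dorsal hippocampus, differed between these groups too. Across the 20 PS19 libraries, Hdac8 was higher where oligodendrocyte markers were higher (r = 0.646, permutation adjusted p = 0.048; rho = 0.698, adjusted p = 0.0674), with r = 0.537 without 2 libraries.

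**Figure D5:**
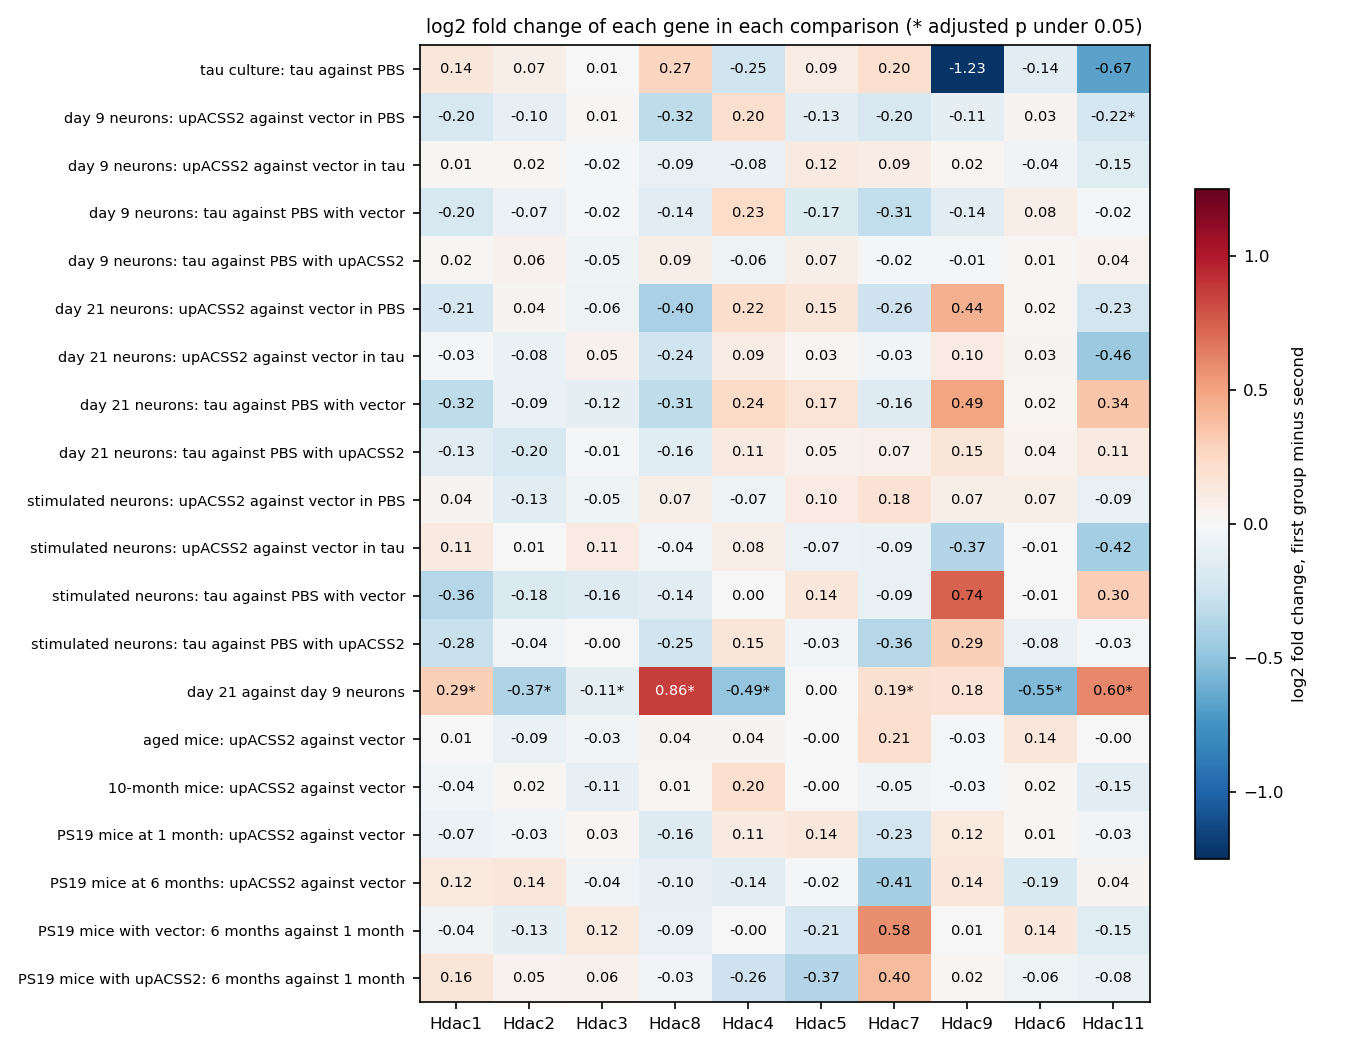
Log2 fold change of each deacetylase gene (columns) in each comparison (rows), with a star where the adjusted p was under 0.05. Interactions and averages over PBS and tau or over both viruses are not drawn. The 8 stars of day 21 against day 9, and the star of Hdac11 for the virus at day 9 with PBS, stand alone.

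The members' log2 changes ran, from the lowest to the highest, as follows. For the virus at day 9 they ran from -0.32 (Hdac8) to 0.20 (Hdac4) with PBS and from -0.15 (Hdac11) to 0.12 (Hdac5) with tau. At day 21 they ran from -0.40 (Hdac8) to 0.44 (Hdac9) with PBS and from -0.46 (Hdac11) to 0.10 (Hdac9) with tau. Both ends with PBS leaned on replicate 3 of vector with PBS, the library with the most astrocyte marker RNA. Without it Hdac8 was at -0.11 and Hdac9 at 0.19. After stimulation the ranges were -0.13 (Hdac2) to 0.18 (Hdac7) with PBS and -0.42 (Hdac11) to 0.11 (Hdac1) with tau. For tau, Hdac9 was the highest member in 4 of the 6 comparisons with a virus, at 0.49 and 0.15 at day 21 and 0.74 and 0.29 after stimulation with vector and upACSS2, and the day 9 ranges were -0.31 (Hdac7) to 0.23 (Hdac4) and -0.06 (Hdac4) to 0.09 (Hdac8). Hdac9 passed in none of these. With vector at day 21, Hdac9 was at 0.25 without replicate 3 of vector with PBS. After stimulation with vector it was at 0.23 without replicate 3 of vector with tau. In both of these fits Hdac11 was the highest member, at 0.28 and 0.27. The lowest members were Hdac1 with vector, at -0.32 at day 21 and -0.36 after stimulation, and with upACSS2 Hdac2 at -0.20 at day 21 and Hdac7 at -0.36 after stimulation. In cultures without virus the range was -1.23 (Hdac9) to 0.27 (Hdac8). In mice the virus ranges were -0.085 (Hdac2) to 0.21 (Hdac7) in aged, -0.15 (Hdac11) to 0.20 (Hdac4) in 10-month, -0.23 (Hdac7) to 0.14 (Hdac5) in PS19 at 1 month and -0.41 (Hdac7) to 0.14 (Hdac2) in PS19 at 6 months. Between times in PS19 mice Hdac5 was lowest and Hdac7 highest with either virus, at -0.21 and 0.58 with vector and -0.37 and 0.40 with upACSS2.

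Over the 22 group means, with each table's mean subtracted, correlations between members restate in part the day change, since 8 of the groups span both days. Hdac8 ran against Hdac4 (r = -0.927) and Hdac6 (r = -0.885), while Hdac4 ran with Hdac6 (r = 0.883) and Hdac1 with Hdac8 (r = 0.810). The group means within a table share their scaling and their cultures or cohort, so these are descriptions with no p. Among 12682 genes the patterns most like that of Hdac6 were those of Armh3 (r = 0.980) and Afap1 (0.978), and the most like Hdac8 were Ppie (0.976) and Asrgl1 (0.968). For Hdac4 they were Bmpr2 (0.974) and Pcnx (0.972), for Hdac11 Dmac2 (0.960), and for Hdac2 Vps36 (0.955) and Ube2e3 (0.954). Hdac9 was most like Tmx4 (0.942) and Kcna4 (0.926), Hdac3 like Osbpl9 (0.933) and Atp1b3 (0.905), and Hdac1 like Rhoa (0.929) and Cbr3 (0.928). Hdac7 was most like Clasrp (0.887) and Wsb1 (0.863). Hdac5 had the weakest likeness, to Dact3 (0.816) and Egln2 (0.792).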

How the data were processed

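RNA was measured by poly(A) sequencing in 98 libraries of 22 groups, and the authors deposited 6 tables of whole-number read counts per gene, with no normalization seen in the values. The submitters' processing notes name STAR, featureCounts, HTSeq, DESeq2 and build mm10; versions, the annotation and the use of strand are not given in the sources used here. Rows without a gene name, 6.13% to 8.74% of the counts in the table of cultures without virus, were left out. Counts were tested with the edgeR 4.0.16 quasi-likelihood F test in R 4.3.3. Settings were TMM scaling, filterByExpr, Benjamini-Hochberg adjustment over all genes tested, and a threshold of 0.05, two-sided. There was 1 fit per table, and 1 per day for comparisons within a day of unstimulated neurons. Day 21 against day 9 was tested in 1 fit of all 24 unstimulated libraries, with a shared estimate of the spread. Fitted for each day alone, the common spread (root of the edgeR dispersion) was 0.042 at day 9 and 0.189 at day 21. CPM is TMM-scaled; log2 CPM has a prior count of 2. Exon lengths came from GENCODE vM21 and start windows from RefSeq (GRCm38.p6). DESeq2 1.42.0 and limma 3.58.1 gave alternatives. The members and the gene lists were chosen with earlier results of these data known. Members were named in full where past the threshold and otherwise by the range and count of all 10, with further members where a library or another tool changed a value, and for each the 2 genes most like it by Pearson correlation over group means. A gene most like Hdac11 and the genes of 1 partner list are not reported here.

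No pair of libraries within a group agreed within sampling noise (242 pairs, lowest chi-square per gene 2.24). Deviations of same-numbered libraries correlated above 0.1 in every pair for tau against PBS without virus (0.22 to 0.394), and after stimulation for virus with tau (0.111 to 0.359) and for tau with vector (0.123 to 0.326); the labels do not say that numbers mark shared batches, and in the other comparisons at least 1 pair was at or below 0.1. On simulated data with known changes, the day 9 comparison of virus with PBS (13931 genes) recovered 70% of 100 genes changed by 0.5 and 92.9% of 98 changed by 1 on the log2 scale. The day comparison (14679 genes) recovered 77% and 93.9%, and the PS19 comparison at 6 months (15657 genes) 38.4% and 75%. False calls were 6, 5 and 6 in the same order of comparisons. The simulation gave both days the same spread per gene and changed few genes, unlike the measured day comparison. Its recovery there cannot be carried over to the measured data. The reads of Hdac1 may be split with its pseudogene Hdac1-ps, which 4 tables list.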

Additional observations from a re-analysis of the deposited data

Results flagged for a closer look

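In groups of 4 to 10 libraries, 70 combinations of group and gene were searched for a library far from the others by Dixon's test, which chance alone flags in about 1 of 20, and 7 were found. In PS19 mice these were Hdac9 in replicate 4 of upACSS2 at 1 month (73.6 CPM, others 53.0 to 57.4), Hdac6 in replicate 4 of vector at 1 month (36.7 CPM, others 27.3 to 29.7), Hdac3 in replicate 5 of upACSS2 at 6 months (56.8 CPM, others 50.6 to 51.6) and Hdac7 in replicate 3 of vector at 6 months (14.7 CPM, others 10.1 to 11.01). In the cultures without virus, replicate 4 with tau was far from the others in Hdac2 (141 CPM, others 127 to 128) and in Hdac4 (49.6 CPM, others 52.9 to 53.3). In 10-month mice, replicate 2 with upACSS2 was far from the others in Hdac2 (141 CPM, others 89.8 to 105).

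Among 590 pairs of comparisons, Hdac11 moved in opposite directions with tau in cultures without virus (-0.67 on the log2 scale, every tau library below every PBS library) and in neurons with vector, at 0.34 at day 21 and 0.30 after stimulation, where every tau library lay above every PBS library, as for 9.47% and 26.7% of all genes in either direction; in cultures without virus it was 16.7%. These come from separate tables, and the difference was not tested. Without PBS replicate 3 the value in cultures without virus was -0.20.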

How the results depend on the processing

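The number of members past the threshold stayed within 1.5 times its main value in 179 of 193 recomputations with another setting and in 271 of 282 with 1 library left out. In most comparisons the main value was 0 members, and an unchanged count there was 0 again. These totals therefore say little about the comparisons that had calls. The day effect counted 8 members with the replicate block and in the main fit, 5 in a fit of vector with PBS alone (6 for that condition in the fit of all 24 libraries), and 7 to 8 with 1 library left out; the block changed no call of a member in any comparison. With library totals the Hdac3 day effect reversed to 0.0319. Virus at day 9 with PBS (1 member) gave 2 in DESeq2, 2 with no filter, 2 with only the 2 groups fitted, 0 with all 24 libraries, and 0 to 3 with 1 library left out (0 without upACSS2 replicate 3 or vector replicate 1, 3 without vector replicate 3). Its average over tau gave 0 with all 24 libraries. Tau at day 9 with vector (0 members) gave 2 in DESeq2, 1 with library totals, 3 with no filter and 0 to 2 with 1 library left out; the interaction gave 2 with no filter and 0 to 2 with 1 library left out. With all 24 libraries, virus at day 21 gave 1 member with tau and 1 on average, and leaving out 1 library gave 0 to 1 on average. After stimulation, DESeq2 gave 1 member for virus with tau, and leaving out 1 library gave 0 to 1 for either average. In PS19 mice, DESeq2 gave 1 member between times with upACSS2, and leaving out 1 library gave 0 to 1 with vector. Summing Hdac1 and Hdac1-ps changed no count. The cause of these differences was not tested.

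Depth limits Hdac1, Hdac7 and Hdac8 most, whose lowest counts were 69, 33 and 55. Tables are separate experiments, so tests were run within a table, and levels across tables are set side by side untested. Day, cell makeup and time in culture cannot be told apart.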
